A study of Mus musculus with 12 samples.

Results

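Translation initiation and elongation factors were followed in liver and brain of mice with and without Mettl5, the methyltransferase that, with its partner TRMT112, places m6A on 18S rRNA. The genes were chosen by a rule on their names, which uses no values but was set with earlier results of these data known. It takes protein-coding genes whose symbol starts with Eif and a digit from 1 to 6, or with Eef1 or Eef2, leaving out the Eif2ak kinases, pseudogenes and Y-linked genes. This gave 63 members among the 55487 genes of the table. Of 79 symbols with these prefixes, 10 pseudogenes, 4 Eif2ak kinases, 1 Y-linked gene and 1 lincRNA were left out, and no excluded pseudogene had more than 35 counts in any library.

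The data were total RNA-seq gene counts from 12 libraries, the liver and the brain of 6 mice, in 4 groups of 3 libraries. WT liver and WT brain came from mice B, D and E, and KO liver and KO brain came from mice A, C and F, so that each mouse gave 1 liver and 1 brain library. KO mice lacked Mettl5 in the whole body: exon 2 was floxed in C57bl/6 and 129S6 hybrid ES cells, the line was backcrossed to B6, and exon 2 was removed by a cross with B6.C-Tg(CMV-cre)1Cgn/J. The labels call the controls WT, whereas the figure legends and the supplementary text of the study give heterozygous mice as the controls of its RNA-seq. The names WT and KO follow the labels here, and the labels give no age or sex. Total counts ran from 14403309 to 21623180 per library. The p-values measure the spread between 3 mice per group.

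Protein synthesis starts when eIF2, bound to GTP and the initiator tRNA, joins the small ribosomal subunit with eIF1, eIF1A, eIF3 and eIF5, and the complex is brought to the mRNA cap by eIF4E, eIF4G and the helicase eIF4A. eIF2B recharges eIF2 with GTP, the 4E-binding proteins hold eIF4E away from eIF4G, and eIF5B joins the large subunit. During elongation, eEF1A delivers aminoacyl-tRNA and is recharged by the eEF1B complex, eEF2 moves the ribosome along, and eEF2 kinase slows eEF2. Several factors have paralogues, and eEF1A2 is known as the form of adult neurons and muscle.

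The libraries matched their tissue labels. Alb, the main plasma protein made by hepatocytes, lay between 59836 and 77569 CPM (counts scaled to the size of the library) in liver and between 7.66 and 19.3 CPM in brain. Snap25, a synaptic protein of neurons, lay between 794 and 941 CPM in brain and at most at 1.62 CPM in liver. Mettl5 itself lay between 4.64 and 5.23 CPM in KO liver and between 10.1 and 19.0 CPM in WT liver, and between 2.61 and 3.12 CPM in KO brain and 3.96 and 7.13 CPM in WT brain. Its libraries did not overlap between the genotypes in either tissue, with log2 fold changes of -1.44 (SE 0.27) for liver and -0.84 (SE 0.27) for brain, with adjusted p of 0.383 and 0.373 in edgeR's quasi-likelihood test and 0.00127 and 0.209 in DESeq2's Wald test. Over all settings fitted, the value for brain lay between -1.15 and -0.549, the latter without mouse B. Counts were summed over all exons, so that the remaining counts do not tell exon 2 from the others.

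Some features of the libraries moved with genotype. The share of counts on the mitochondrial rRNA genes was 21.4% to 31.6% in KO brain against 7.63% to 17.7% in WT brain, and 7.36% to 8.66% in KO liver against 10.7% to 16.9% in WT liver. The 10 cerebellum markers, all counted in every brain library, summed to between 187 and 571 CPM in KO brain and between 851 and 1353 CPM in WT brain, the 8 choroid plexus markers to between 95.9 and 151 CPM and between 187 and 315 CPM, and the 6 hepatocyte markers to between 87.5 and 137 CPM and between 166 and 299 CPM. The choroid plexus and hepatocyte lists share the gene Ttr, and their sums put the brain libraries in the same order, so that they are not separate features. The 5 B cell markers, all counted in every liver library, summed to between 9.31 and 15.1 CPM in KO liver and between 30.2 and 178 CPM in WT liver, and the 3 genes of the astrocyte list (Gfap, Aqp4, Slc1a2) to between 111 and 173 CPM and between 181 and 213 CPM. That list was made for brain, and its sum in liver is not a measure of astrocytes and was not split by gene. Neuron markers overlapped between the genotypes in brain (2085 to 2305 CPM in KO, 2113 to 2407 CPM in WT), as did astrocyte, oligodendrocyte and olfactory bulb markers, and hepatocyte and red cell markers overlapped in liver. The part of these features in the results on genotype was not tested.

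Levels of different genes are given as RPKM, that is CPM per kilobase of exon, with library sizes scaled by TMM. The members together took between 0.829% and 0.921% of the counts that were not on mitochondrial rRNA. Eef1a1, which encodes the main carrier of aminoacyl-tRNA, stood at 977 ± 171 RPKM (SD, n = 3) in WT liver, and Eef2, the translocation factor, at 401 ± 62.8 RPKM. In WT brain, Eef1a1 and Eef1a2 stood at 240 ± 16.9 and 246 ± 72.6 RPKM and did not differ beyond their spread, and Eef2 stood at 189 ± 32.2 RPKM. Among the initiation factors, Eif4g1, the scaffold of the cap complex, had the highest mean level in WT liver (96.6 ± 19.5 RPKM), and Eif4a2, a helicase, in WT brain (58.8 ± 4.94 RPKM). At the low end, Eif4e1b had no count in any library, which allows up to 3 counts per library, Eef1akmt3 had at most 3 counts, and Eif4ebp3 had between 0 and 12. The median coefficient of variation among the 3 libraries of a group was 10.1% to 13.1% for members with a mean of at least 50 counts, against 13.6% to 14.9% for all genes with that mean.

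**Figure D1:**
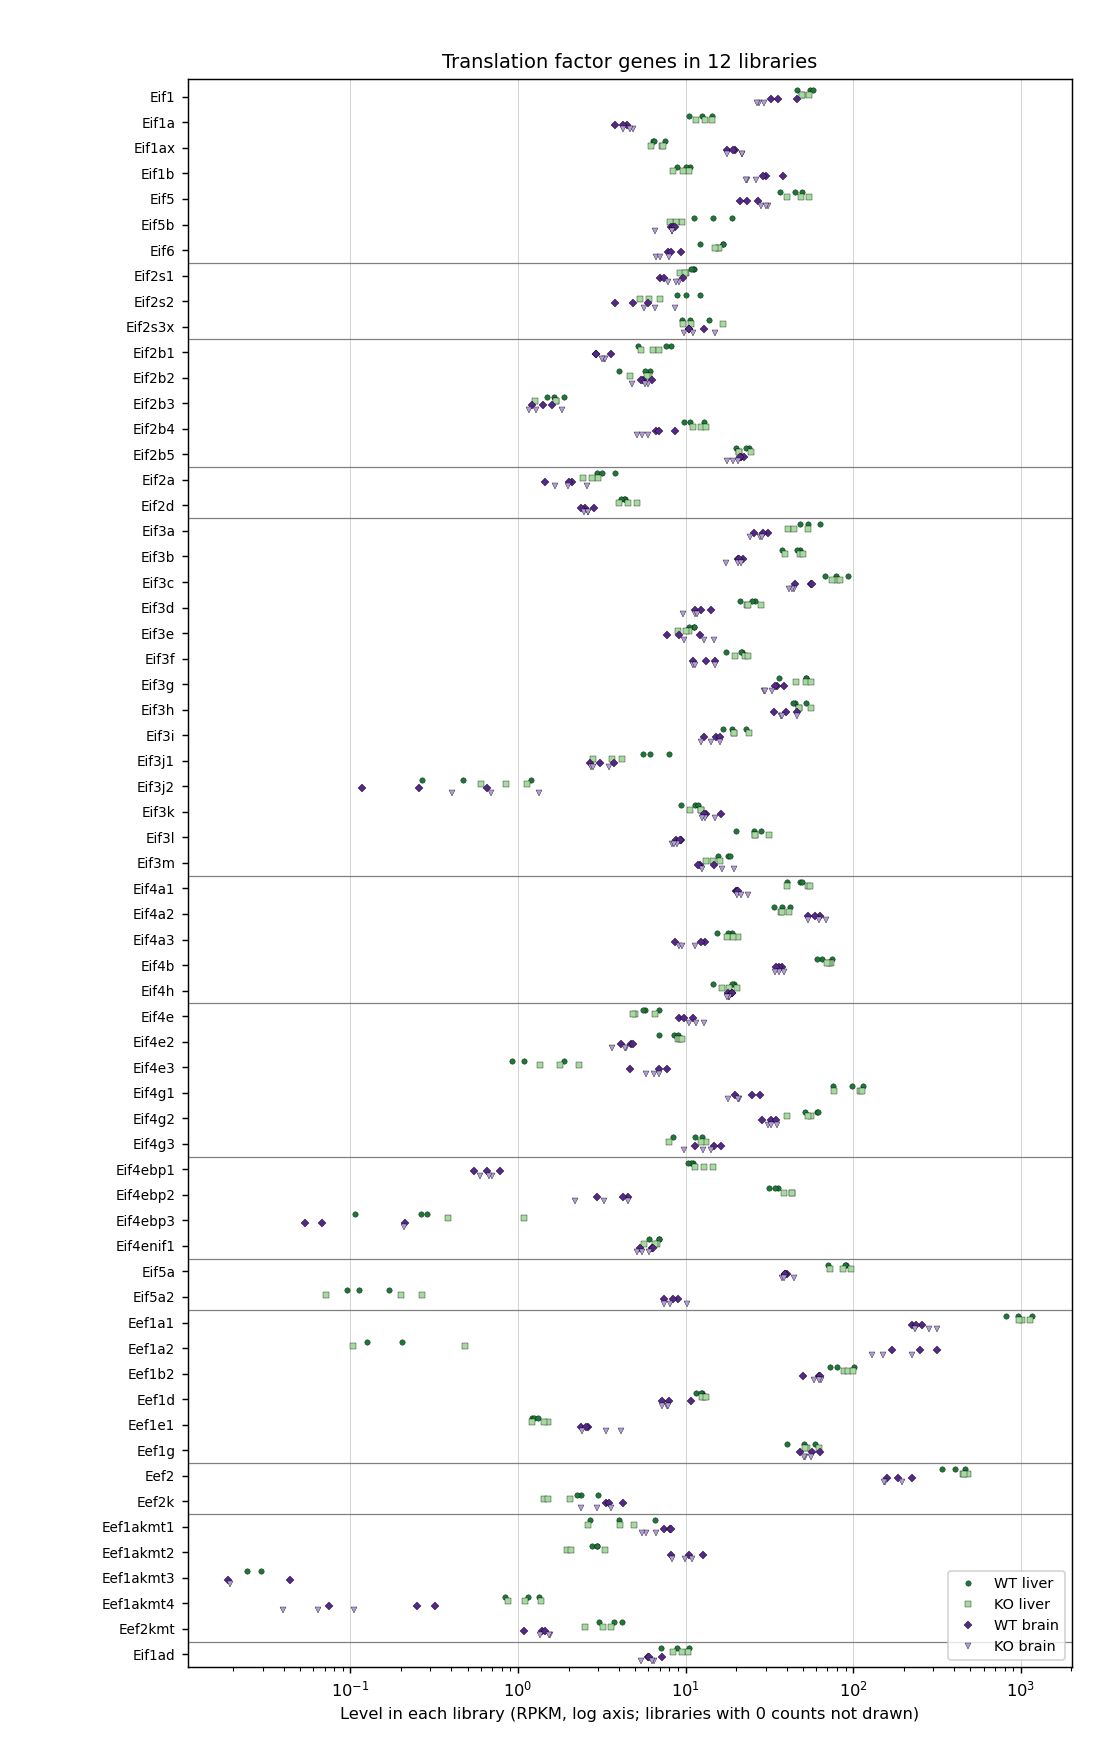
Level of each of the 62 members with counts, in RPKM on a log axis, in roles separated by lines, with 1 symbol per library and a colour per group (libraries with 0 counts are not drawn). Eef1a1 and Eef2 reach the highest levels, and the liver and brain libraries of Eef1a2 and Eif5a2 lie far apart.

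Liver was set against brain within the WT mice. Of 60 members tested, 49 passed at an adjusted p under 0.1 (edgeR quasi-likelihood, adjusted by Benjamini-Hochberg), 37 of them higher in liver and 12 lower. Among all 17694 genes tested, 78.3% passed, 35.4% higher in liver and 42.9% lower. An offset for GC content was also fitted, which takes up the overall level of each library as well. Before the offset, Spearman's rho of log2 fold change with GC content was 0.02 across all genes and 0.09 across members. With the offset the balance of all genes turned, to 44.6% higher and 37.5% lower, and 53 members passed, 43 higher and 10 lower. The part of GC content itself in this turn was not tested. The median log2 fold change was 0.57 for the members and -0.16 for all genes, and 0.86 and 0.205 with the GC offset, so that the median of all genes turned while that of the members stayed above it. With an absolute log2 fold change of at least 1 in addition, 21 of 60 members passed, or 35%, against 60.9% of all genes. With the GC offset 33 members passed, but the share of all genes was not counted there, so that this rise is not particular to the members. In bulk tissue, fewer cells of a type and less RNA per cell cannot be told apart.

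The eEF1A genes went in opposite directions. Eef1a2 had 4, 0 and 6 counts in the WT liver libraries of mice B, D and E and 7049, 16539 and 13221 counts in their brain libraries. The liver counts were at or near the floor of 3 counts and Eef1a2 passed the filter on low counts through its level in brain, so that its difference is given by these counts and its fitted log2 fold change, -11.0, has no precise size. Eef1a1 was higher in liver, with 2390, 2880 and 2040 CPM in WT liver and 644, 561 and 590 CPM in WT brain, a log2 fold change of 2.03 (SE 0.23, adjusted p = 1.37e-05). Per length, Eef1a2 made up 0.0127% of the pair in WT liver and 49.9% ± 9.38 in WT brain. Reads of Eef1a1 are partly ambiguous, since 16.3% of the 100-base stretches of its transcripts also occur in other annotated transcripts, Gm13456 first.

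The same order, a form higher in liver and a form higher in brain, was seen for eIF5A, which helps ribosomes through stretches that are slow to translate. Eif5a had 217, 213 and 169 CPM in WT liver and 95.3, 93 and 92.4 CPM in WT brain. Its paralogue Eif5a2 had 13, 6 and 8 counts (0.851, 0.478 and 0.568 CPM) in WT liver and 45.3, 42.3 and 37.3 CPM in WT brain. The libraries of the tissues did not overlap for either gene, and the log2 fold change of Eif5a was 1.1 (SE 0.16, adjusted p = 1e-04). Eif5a2 passed the filter on low counts through its level in brain, so that its difference is given by these levels. The size of its fitted log2 fold change, -6.0, rests on the few counts in liver. The share of Eif5a2 in the pair was 0.15% ± 0.0405 in WT liver and 17.4% ± 1.19 in WT brain.

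The sequence just before the annotated start is shown for the brain forms Eef1a2 and Eif5a2, for Eef1a1 and for the eIF4A pair, since their members split between the tissues. The windows come from RefSeq on GRCm38.p6, which held windows for 47 of the 63 members, and bases that the gene annotation places in an exon were left off. All are written 5′ to 3′ on the strand of the gene. Capitals mark 3 motifs searched on both strands: CACGTG, the E-box that reads the same on both strands, CCGGAAGT, an ETS-type site, with its reverse complement ACTTCCGG, and TATAAA with its reverse complement TTTATA. The windows lie at chr9:78481725-78481974 (minus strand, Eef1a1), chr2:181157016-181157265 (minus strand, Eef1a2), chr3:28781027-28781275 (plus strand, Eif5a2), chr11:69672424-69672673 (minus strand, Eif4a1) and chr16:23107218-23107443 (plus strand, Eif4a2).
Eef1a1: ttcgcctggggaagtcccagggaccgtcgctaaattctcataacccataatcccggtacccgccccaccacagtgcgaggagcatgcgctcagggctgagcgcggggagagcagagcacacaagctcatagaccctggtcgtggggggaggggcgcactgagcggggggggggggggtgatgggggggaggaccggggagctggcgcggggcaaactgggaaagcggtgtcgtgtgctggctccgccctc
Eef1a2: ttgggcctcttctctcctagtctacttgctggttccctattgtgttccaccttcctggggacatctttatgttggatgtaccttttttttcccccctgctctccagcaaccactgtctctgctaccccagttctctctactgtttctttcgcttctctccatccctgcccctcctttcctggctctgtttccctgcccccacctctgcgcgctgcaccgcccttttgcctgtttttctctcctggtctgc
Eif5a2: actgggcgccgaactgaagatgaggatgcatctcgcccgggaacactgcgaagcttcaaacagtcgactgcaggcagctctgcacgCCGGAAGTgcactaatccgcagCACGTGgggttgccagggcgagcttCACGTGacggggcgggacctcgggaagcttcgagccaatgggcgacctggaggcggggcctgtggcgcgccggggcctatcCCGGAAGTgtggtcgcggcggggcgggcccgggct
Eif4a1: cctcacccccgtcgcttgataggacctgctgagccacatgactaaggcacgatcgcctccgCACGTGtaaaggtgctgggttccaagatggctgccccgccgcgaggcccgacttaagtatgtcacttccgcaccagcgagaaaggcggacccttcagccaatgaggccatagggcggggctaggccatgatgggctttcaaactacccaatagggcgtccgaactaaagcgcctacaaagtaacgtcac
Eif4a2: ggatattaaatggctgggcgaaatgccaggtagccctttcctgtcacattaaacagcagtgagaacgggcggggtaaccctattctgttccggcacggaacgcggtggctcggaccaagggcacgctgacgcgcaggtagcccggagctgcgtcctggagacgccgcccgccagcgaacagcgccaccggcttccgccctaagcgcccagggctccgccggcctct

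The printed window of Eef1a1 was 68% GC with 18 CpG dinucleotides, and that of Eef1a2 54% GC with 4. The window of Eif5a2 held CACGTG 2 times and CCGGAAGT 2 times, counting both strands, and that of Eif4a1 held CACGTG 1 time. Over whole windows, Eif5a, the form higher in liver, held both of these motifs as well. Over whole windows of 300 bases, from 250 before to 50 after the start, CACGTG was found in 24.6% of 61 member windows and in 7.15% of all 32851 windows. CCGGAAGT was found in 16.4% of member windows and 3.89% of all, and TATAAA in 6.56% and 13.6%. The letters were chosen after these sequences had been read, member windows were richer in G and C (median 62.3% against 52.7%), and a gene can have several windows. A match is a run of letters and was not tested as a binding site.

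Other paralogue pairs also split between the tissues. The helicase genes Eif4a1 and Eif4a2 had log2 fold changes of 1.2 (SE 0.15, adjusted p = 4.01e-05) and -0.63 (SE 0.17, adjusted p = 0.00601), and Eif4a2 made up 45.1% ± 3.65 of the pair in WT liver and 74.3% ± 1.76 in WT brain. The exons of Eif4a2 overlap 6 other annotated genes on its strand, Snora81 and Snord2 among them, and its log2 fold change was -0.09 (adjusted p = 0.686) with an offset for GC content. Eif1 and Eif1b, which keep the scanning ribosome from starting at wrong codons, differed by 0.48 (SE 0.18, adjusted p = 0.0297) and -1.71 (SE 0.17, adjusted p = 6.69e-06), and the adjusted p of Eif1 was 0.216 without mouse B. Eif1a and Eif1ax, both genes for eIF1A, differed by 1.58 (SE 0.17, adjusted p = 1.13e-05) and -1.47 (SE 0.15, adjusted p = 7.38e-06), and the share of Eif1ax in the pair was 35.6% ± 4.13 in WT liver and 81.9% ± 0.281 in WT brain.

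Eif4e, the cap-binding protein, had a log2 fold change of -0.72 (SE 0.16, adjusted p = 0.00208) and its relative Eif4e3 one of -2.3 (SE 0.31, adjusted p = 5.68e-05), so that both were lower in liver, Eif4e by -0.34 (adjusted p = 0.0714) with the GC offset. Eif4g1 was higher in liver, by 2.01 (SE 0.22, adjusted p = 1.2e-05), and Eif4g3, another scaffold, had -0.38 (SE 0.20, adjusted p = 0.11), with a lowest adjusted p of 0.0329 (without mouse B) and a highest of 0.487 over 11 settings, of which 4 passed. The log2 fold change of Eif4g3 lay between -0.676 (without mouse B) and -0.185 (without mouse E). The translational repressors Eif4ebp1 and Eif4ebp2 were both higher in liver, by 4.03 (SE 0.21, adjusted p = 3.87e-08) and 3.12 (SE 0.20, adjusted p = 1.32e-07). Eif4ebp1 had 24.2, 23.7 and 22.6 CPM in WT liver and 1.72, 1.19 and 1.43 CPM in WT brain. Eif4ebp2 had 207, 181 and 198 CPM in WT liver and 17.1, 26.1 and 24.5 CPM in WT brain.

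In 8 of 9 paralogue pairs, the share of the second member in the 3 WT liver libraries lay below that in the 3 WT brain libraries. An exact permutation test (two-sided) of 3 libraries against 3 cannot go below p = 0.1, which each of the 8 pairs reached, and the adjusted p over 27 tests was 0.338. For the pairs with Eef1a2 and Eif5a2 this is a description, since Eef1a2 was at or near the floor in liver and Eif5a2 had few counts there and passed the filter through brain. Among single genes, 78.2% of those tested did not overlap between the tissues. The exception was Eif3j1 and Eif3j2, with mean shares of Eif3j2 of 9.16% in WT liver and 9.79% in WT brain (exact permutation p = 0.8). Counts of these genes are uncertain, since 84% of the 100-base stretches of Eif3j2 and 44.2% of those of Eif3j1 occur in transcripts of other genes.

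**Figure D2:**
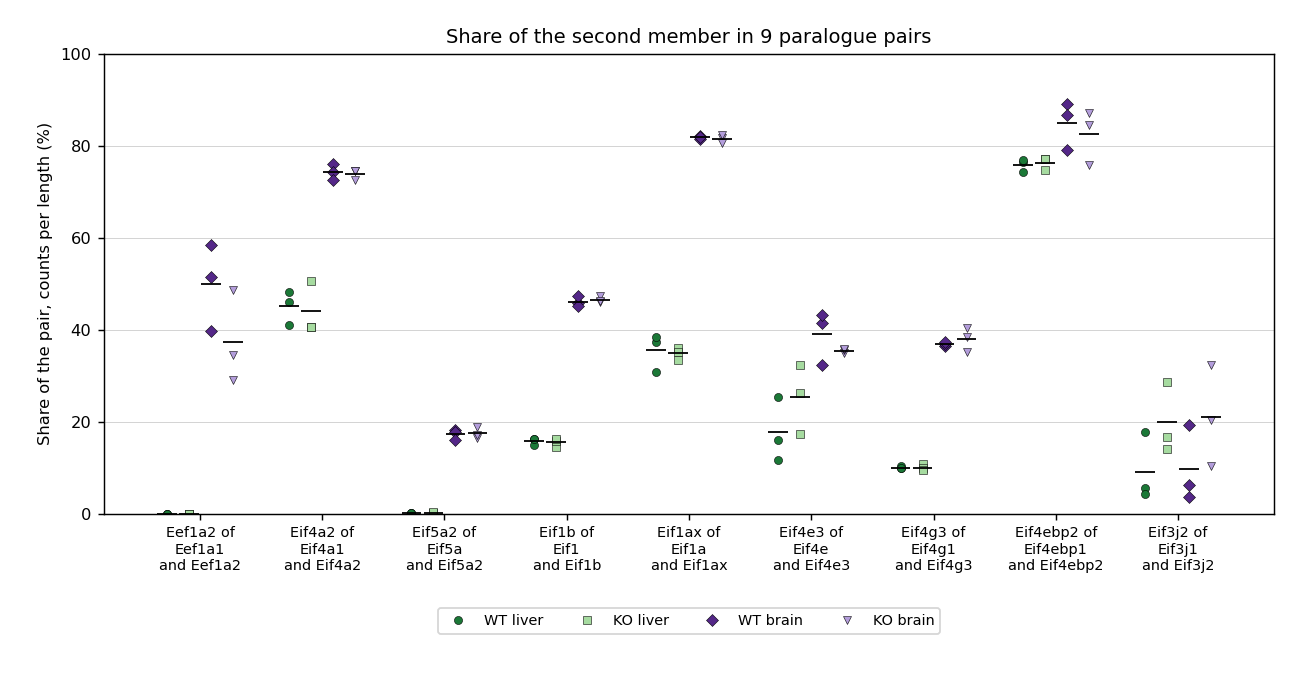
Share of the second member in each of 9 paralogue pairs, from counts per exon length, in percent, with 1 symbol per library and a bar at the mean of each group. Shares in the WT brain libraries lie above those in the WT liver libraries in every pair but that of Eif3j1 and Eif3j2, and the WT and KO libraries of a tissue overlap in all 9 pairs.

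Among the multi-subunit factors, 10 of 14 eIF3 genes tested were higher in WT liver, 1 was lower and 3 did not pass, with a median log2 fold change of 0.63, beside the 35.4% of all genes that were higher, the 42.9% that were lower and the 78.3% that passed in either direction. Eif3l led with 1.43 (SE 0.17, adjusted p = 1.95e-05), followed by Eif3b, a core scaffold subunit, with 1.06 (SE 0.16, adjusted p = 0.000111). Eif3d, Eif3j1, Eif3a, Eif3f, Eif3c, Eif3m, Eif3i and Eif3g were higher by 0.94, 1.05, 0.96, 0.64, 0.62, 0.43, 0.42 and 0.39, each with an adjusted p of at most 0.071, and Eif3h, Eif3j2 and Eif3e had 0.25, 0.92 and 0.19 without passing. Eif3k, which pairs with Eif3l in the complex, was lower in liver, with -0.36 (SE 0.16, adjusted p = 0.0659). With the GC offset 13 of the 14 were higher, beside 44.6% of all genes, and Eif3k, at -0.25 (adjusted p = 0.149), did not pass. For eIF2, Eif2s2 (the beta subunit) and Eif2s1 (alpha) were higher in liver, by 1.1 (SE 0.20, adjusted p = 0.000523) and 0.47 (SE 0.17, adjusted p = 0.0267) (Eif2s1 0.97 with the GC offset), and Eif2s3x (gamma) had 0.01 (SE 0.18, adjusted p = 0.976). For eIF2B, Eif2b1 and Eif2b4 were higher in liver, by 1.16 (SE 0.22, adjusted p = 0.000614) and 0.60 (SE 0.18, adjusted p = 0.00976), and Eif2b3, Eif2b5 and Eif2b2 had 0.26, 0.05 and -0.13 without passing. Of the exchange partners of eEF1A, Eef1b2 and Eef1d were higher in liver, by 0.53 (SE 0.18, adjusted p = 0.0217) and 0.51 (SE 0.17, adjusted p = 0.0216), whereas Eef1g had -0.15 (SE 0.19, adjusted p = 0.484), with 32.4% of its 100-base stretches shared with other transcripts. Eef1e1, a part of the aminoacyl-tRNA synthetase complex, had -0.99 (SE 0.22, adjusted p = 0.00173).

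Eef2 was higher in liver, by 1.1 (SE 0.22, adjusted p = 0.00096), and its kinase Eef2k lower, with -0.52 (SE 0.18, adjusted p = 0.0202). Among the methyltransferases of elongation factors, Eef2kmt was higher in liver, by 1.5 (SE 0.24, adjusted p = 0.000205), and Eef1akmt2 lower, with -1.85 (SE 0.22, adjusted p = 2.06e-05). The 7 scanning and joining factors passed, 5 higher and 2 lower in liver, in a comparison where 78.3% of all genes passed, and Eif6, which keeps free large subunits apart from small ones, had 0.86 (SE 0.17, adjusted p = 0.00105). A list of 47 related genes outside the naming rule held release factors, eIF2 kinases, poly(A)-binding proteins, mitochondrial factors and others. Gcn1 was not found under this symbol among the protein-coding genes, and the other 46 were tested. Of these, 27 were higher in WT liver and 9 lower, against 35.4% and 42.9% of all genes (78.3% in either direction). With the GC offset 31 were higher and 6 lower, against 44.6% and 37.5%.

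The same comparison in KO mice shares no library with that in WT mice. Of 60 members tested, 44 passed, 32 higher in liver and 12 lower, against 80.2% of all 17396 genes (36.2% higher and 44.1% lower), and the median log2 fold change was 0.58 for members and -0.17 for all genes. With the GC offset 53 passed, 43 higher and 10 lower, against 45.2% and 37.5% of all genes, and the medians were 0.94 and 0.227. Of the 60 members, 55 had the same direction in both genotypes (91.7%, against 91.9% of all genes tested in both), as did all 42 that passed in both. A further 7 passed in WT alone, 2 in KO alone and 9 in neither. Of the 42, Eef1a2 and Eif5a2 passed the filter through brain and Eef1akmt4 through liver in both genotypes, so that their place in these counts is a description. Eif4a2 turned to 0.28 (adjusted p = 0.0974) in KO mice with GC offsets. Eif3e, which passed in KO mice alone with -0.35, also turned, to 1.34 (adjusted p = 1.83e-05). With the mouse as a replicate block neither Eif3e nor Eif3h, the other member that passed in KO mice alone, passed. Eef1akmt4 had 23, 31 and 21 counts in KO liver and 1, 3 and 2 counts in KO brain, and 28, 27 and 19 counts in WT liver and 8, 3 and 13 counts in WT brain. Eef1a2 had 13, 3 and 0 counts in KO liver and 4255, 8209 and 6032 counts in KO brain. Eif5a2 had 13, 5 and 20 counts in KO liver and 805, 654 and 779 counts in KO brain, and the size of its fitted log2 fold change, -5.56, again rests on the few counts in liver. The values in KO mice were 4.3 (SE 0.21, adjusted p = 4.2e-08) for Eif4ebp1 and 3.64 (SE 0.26, adjusted p = 6.25e-07) for Eif4ebp2. Eif4g1, Eif3l, Eef1a1 and Eif1a were higher in KO liver, with log2 fold changes of 2.33, 1.69, 1.9 and 1.5, and Eif1ax, Eif1b, Eef1akmt2 and Eif4e3 lower, with -1.55, -1.35, -1.99 and -1.81, each with an adjusted p of at most 5.36e-05. Of the 46 related genes tested, 27 were higher in KO liver and 12 lower, against 36.2% and 44.1% of all genes, and 32 and 7 with the GC offset, against 45.2% and 37.5%.

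**Figure D3:**
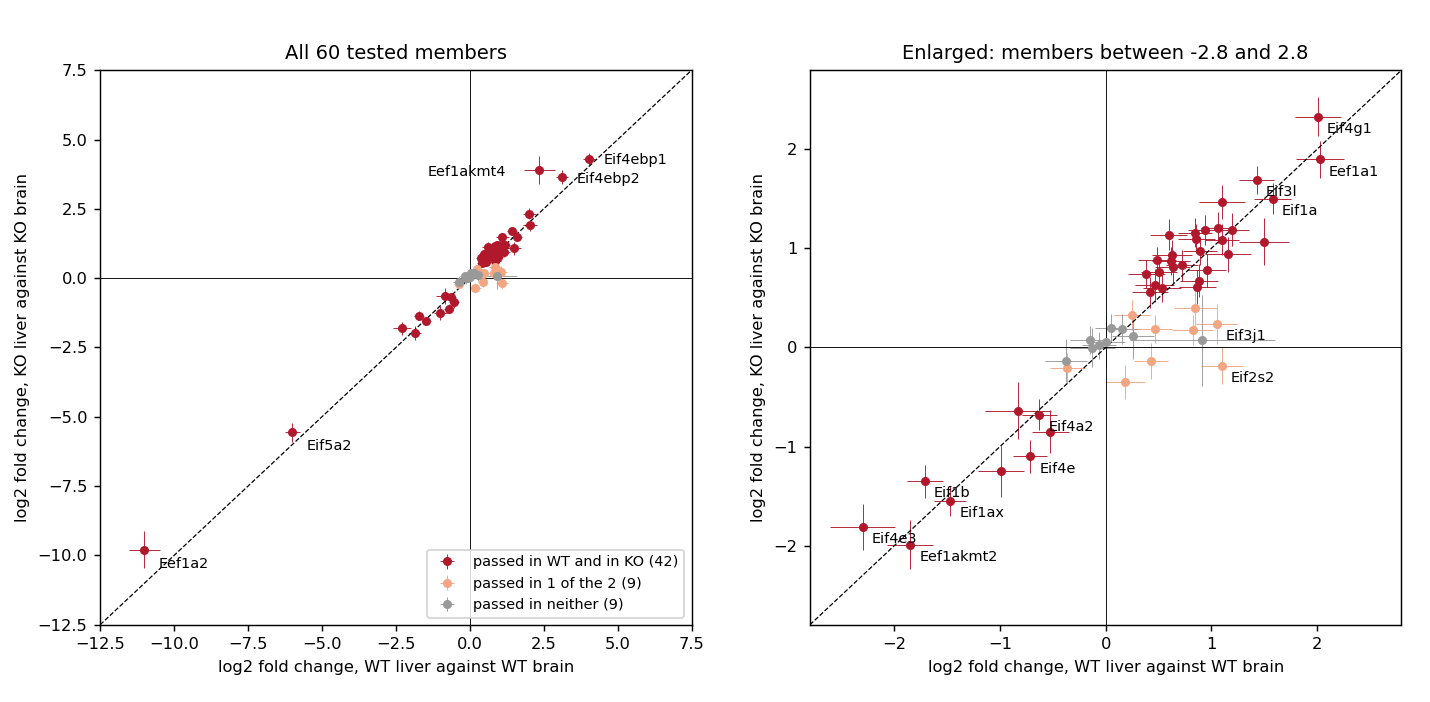
Log2 fold change of each of 60 members, liver against brain, in WT mice (horizontal) and KO mice (vertical), with bars of 1 SE, over the full range (left) and enlarged (right). The 42 members that passed in both genotypes lie in the lower left and the upper right, and Eif2s2 and Eif3j1 lie below the dashed line of equal values.

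None of the 3 eIF2 subunits passed in KO mice in the fit without the GC offset: Eif2s1 had 0.19 (SE 0.14, adjusted p = 0.249), Eif2s2 -0.18 (SE 0.19, adjusted p = 0.402) and Eif2s3x 0.06 (SE 0.24, adjusted p = 0.835). With that offset 53 members passed in KO mice in place of 44. Passing in one genotype and not in the other is no test of a difference, which is given further on. Eif2s3x, an X-linked gene that escapes X inactivation, had more counts in mice E and F, the 2 mice with at most 20 counts on 4 Y-linked genes in either library, against 2112 to 3302 in the other mice, with 52.5 and 63.9 CPM in liver against 36.3 to 41.1 CPM in the other 4 mice. Of its 100-base stretches, 33.7% also occur in Gm2223.

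KO was then set against WT in liver, the comparison that asks what loss of Mettl5 does to these mRNAs. None of the 59 members tested passed, and none of all 14075 genes did (edgeR quasi-likelihood, 0%). At an unadjusted p under 0.05 there were 4 members, all lower in KO liver (6.78% of those tested), whereas 1032 or 7.33% of all genes were past it, 2.76% higher and 4.57% lower. DESeq2's Wald test passed 183 genes and 3 members. The median log2 fold change was 0.03 for members and -0.00244 for all genes. The libraries of the genotypes did not overlap for 8 members (13.6%, against 13.2% of all genes), 2 higher in KO (8.03% of all genes) and 6 lower (5.18% of all genes).

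Eif2s2, the beta subunit of eIF2, had 81.7, 60.1 and 68.4 CPM in WT liver of mice B, D and E and 47.3, 40.8 and 36.2 CPM in KO liver of mice A, C and F. Every KO library lay below every WT library, and the log2 fold change was -0.79 (SE 0.15) with an edgeR adjusted p of 0.383 and a DESeq2 adjusted p of 0.00781. Eif3j1, a loosely held eIF3 subunit, had 46.3, 35.6 and 32.3 CPM in WT liver and 24.3, 21.3 and 16.3 CPM in KO liver, and its log2 value was -0.91 (SE 0.19) with adjusted p of 0.383 in edgeR and 0.0124 in DESeq2. Eif5b, the GTPase of subunit joining, had 184, 109 and 142 CPM in WT liver and 92.2, 84.9 and 78.1 CPM in KO liver, and its log2 value was -0.80 (SE 0.19) with adjusted p of 0.4 in edgeR and 0.0195 in DESeq2. The WT library of mouse B was the highest of its group for all 3 genes.

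Eef2k, the kinase that slows elongation, had 17.7, 22.2 and 16.7 CPM in WT liver and 10.5, 11.2 and 15.1 CPM in KO liver, again without overlap, and its log2 value was -0.64 (SE 0.19) with adjusted p of 0.476 in edgeR and 0.273 in DESeq2. Next among the lower values were Eif3m, an eIF3 subunit, with -0.27 (SE 0.13, adjusted p = 0.727) and Eif2a, an alternative initiation factor, with -0.30 (SE 0.16, adjusted p = 0.747). On the higher side were Eif4ebp2 with 0.27 (SE 0.13, adjusted p = 0.709), Eif4ebp1 with 0.25 (SE 0.14, adjusted p = 0.766), Eif4e3 with 0.45 (SE 0.35, adjusted p = 0.861), Eef2 with 0.18 (SE 0.16, adjusted p = 0.874), Eif4e2 with 0.15 (SE 0.13, adjusted p = 0.875) and Eif3l with 0.15 (SE 0.16, adjusted p = 0.899). With the GC offset Eif3m had -0.14, Eif2a -0.17 and Eef2 0.11. When each mouse was left out, Eif4e3 lay between 0.243 (without mouse F) and 0.826 (without E), Eef2 between 0.0749 (without E) and 0.309 (without D), Eif4e2 between 0.0487 (without E) and 0.234 (without D), and Eif3l between 0.0278 (without E) and 0.267 (without D), and Eif2a had -0.187 without mouse D and Eif4ebp1 0.153 without mouse A. Eif4ebp1 had 32.1, 28.2 and 25.1 CPM in KO liver against 24.2, 23.7 and 22.6 CPM in WT liver. Eif4ebp2 had 249, 250 and 223 CPM in KO liver against 207, 181 and 198 CPM in WT liver. Neither binding protein overlapped between the genotypes, without passing the test. The share of Eif4e3 in its pair with Eif4e was 25.3% in KO liver and 17.8% in WT liver (exact permutation p = 0.2).

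In brain, none of the 59 members tested passed, against 11 of all 17188 genes (0.064%), all 11 higher in KO. At an unadjusted p under 0.05 there were 5 members (8.47%), 2 higher and 3 lower in KO, whereas 1885 or 11% of all genes were past it, 5.96% higher and 5.01% lower. DESeq2's Wald test passed 282 genes and 0 members. The median log2 fold change was -0.06 for members and -0.00162 for all genes. The libraries did not overlap for 8 members (13.6%, against 16.4% of all genes), 1 higher in KO (8.42% of all genes) and 7 lower (7.95% of all genes).

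Eif1 had 74.6, 96.8 and 68 CPM in WT brain and 57.2, 61.2 and 55.9 CPM in KO brain, with a log2 fold change of -0.45 (SE 0.15, adjusted p = 0.385). Eif1b had 33.8, 43 and 32.7 CPM in WT brain and 26.1, 29.5 and 25.8 CPM in KO brain, with -0.42 (SE 0.15, adjusted p = 0.394), and its share in the pair was 46.1% in WT and 46.5% in KO. Neither paralogue overlapped between the genotypes, and mouse D was the highest of the WT libraries for both. Eif2b4, the delta subunit of eIF2B, had 17.2, 22.3 and 17.9 CPM in WT brain and 14.2, 13.4 and 15.6 CPM in KO brain, with -0.41 (SE 0.16, adjusted p = 0.408). Eif5, the factor that makes eIF2 hydrolyse its GTP at the start codon, had 185, 157 and 144 CPM in WT brain and 213, 191 and 206 CPM in KO brain, with 0.33 (SE 0.14, adjusted p = 0.442). Neither of these genes overlapped between the genotypes. Eif2s2 had 40.4, 25.7 and 32.7 CPM in WT brain and 58.3, 38.4 and 44.1 CPM in KO brain, where the library of mouse C lay below that of WT mouse B, with 0.51 (SE 0.21, adjusted p = 0.42).

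Eef1a2 had 356, 658 and 523 CPM in WT brain and 271, 466 and 312 CPM in KO brain, and the groups overlapped, with a log2 fold change of -0.55 (SE 0.26, adjusted p = 0.466). Its share in the pair with Eef1a1 was 49.9% ± 9.38 in WT brain and 37.5% ± 10.1 in KO brain, a difference of -12.4 percentage points (exact permutation p = 0.2). On the lower side followed Eef1akmt1, a methyltransferase of eEF1A, with -0.39 (SE 0.18, adjusted p = 0.463) and the core subunit Eif3c with -0.28 (SE 0.14, adjusted p = 0.473). On the higher side followed Eif3j2 with 1.24 (SE 0.63, adjusted p = 0.488), Eef1e1 with 0.39 (SE 0.21, adjusted p = 0.505), and the eIF3 subunits Eif3e with 0.37 (SE 0.20, adjusted p = 0.517) and Eif3m with 0.32 (SE 0.18, adjusted p = 0.524). Without mouse A the values were 0.163 for Eif3m, 0.325 for Eif2s2 and 0.197 for Eef1e1, and without mouse D -0.336 for Eef1a2 and -0.299 for Eif1. When each mouse was left out, Eif3e lay between 0.223 (without D) and 0.565 (without B) and Eif3j2 between 0.678 (without F) and 2.16 (without E). No paralogue share separated the genotypes in liver or in brain, and the share of Eif3j2 differed by 10.7 and 11.2 percentage points (exact permutation p = 0.3 and 0.2). Of the 46 related genes tested, 4 in liver and 5 in brain had an unadjusted p under 0.05, beside 7.33% and 11% of all genes, and none passed after adjustment in edgeR. DESeq2's Wald test passed 1 of them in liver, the eIF2 kinase gene Eif2ak2, with a log2 fold change of -0.70 and adjusted p of 0.0285 in DESeq2 and 0.383 in edgeR, and 0 in brain.

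**Figure D4:**
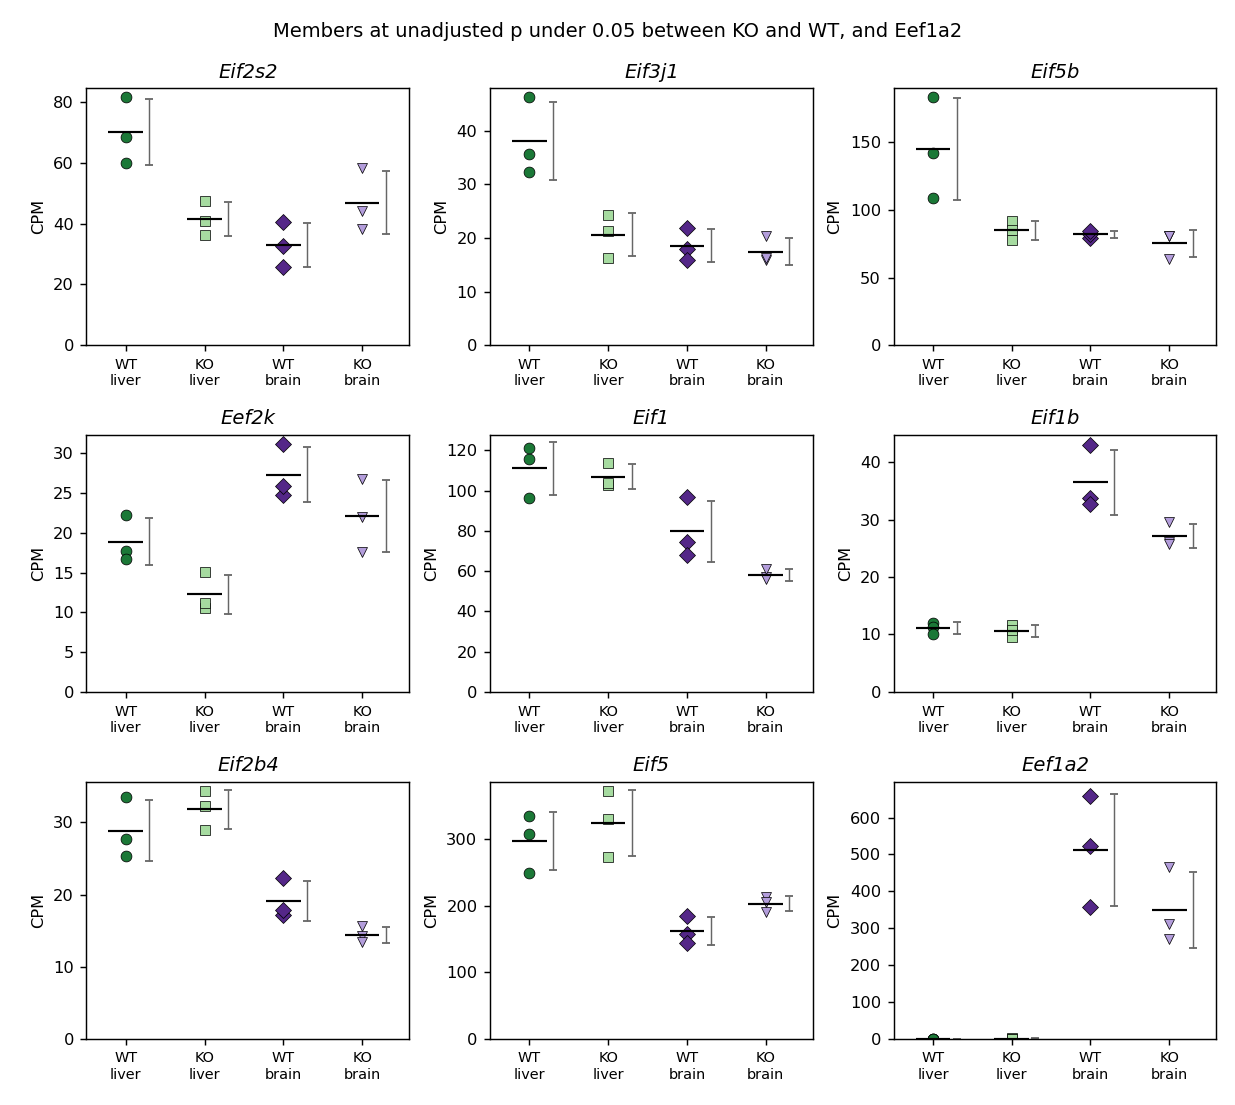
CPM in each library for the 8 members with an unadjusted p under 0.05 between KO and WT in liver or brain, and for Eef1a2, with 1 symbol per library, a bar at the group mean and a grey bar that spans 1 SD to either side of it. The KO liver libraries of Eif2s2, Eif3j1, Eif5b and Eef2k lie below all WT liver libraries, and the KO brain libraries of Eif1, Eif1b and Eif2b4 lie below all WT brain libraries.

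Fold changes in brain moved with the GC content of the transcripts. Across 59 members, Spearman's rho between the log2 fold change of KO against WT and GC content was -0.65, and across all 17168 genes with a GC content it was -0.42. In liver the values were 0.20 and 0.25. These are correlations across genes measured in the same 6 libraries of a tissue, and genes are not replicates. Of the 28 members with a GC content above 51.4%, 3 had a higher value in KO brain, with a median of -0.16, whereas 21 of the other 31 did, with a median of 0.08. With an offset that removes the relation of each library to GC content, rho was 0.03 for members, and the log2 fold changes were -0.23 (adjusted p = 0.554) for Eif2b4, -0.43 (adjusted p = 0.29) for Eif1, -0.37 (adjusted p = 0.348) for Eef1a2 and -0.02 (adjusted p = 0.96) for Eif3e, and Eif3m, Eif2s2 and Eif5 had 0.05, 0.32 and 0.22. The brain libraries also differed in mitochondrial rRNA and cerebellum markers as given above, whose part in this relation was not tested.

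**Figure D5:**
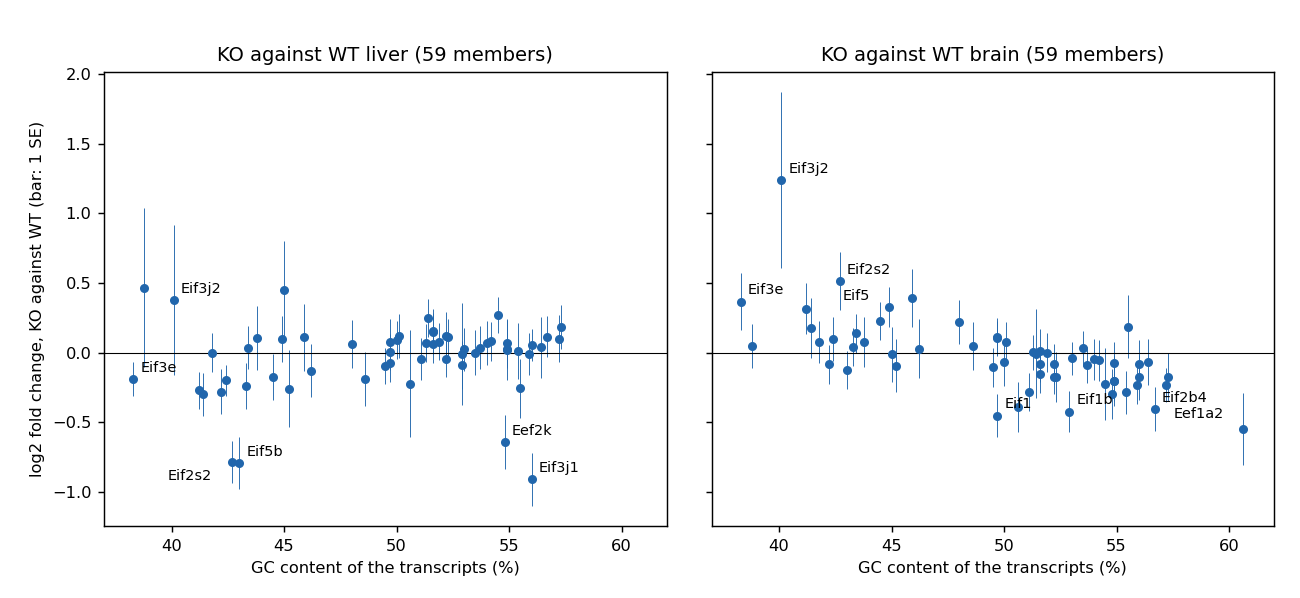
Log2 fold change of KO against WT for each member against the GC content of its transcripts in percent, in liver (left) and brain (right), with bars of 1 SE. In brain the values run from above 0 for GC-poor members such as Eif2s2 to below 0 for GC-rich ones such as Eif2b4 and Eef1a2.

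The genotype effect in liver was tested against that in brain. None of the 60 members tested passed, and none of all 18944 genes (0%, edgeR quasi-likelihood without a term for the mouse). At an unadjusted p under 0.05 there were 5 members (8.33%, against 2004 or 10.6% of all genes). Eif2s2, Eif3j1, Eif5b and Eif3m had a lower effect in liver (5.07% of all genes) and Eif2b4 a higher one (5.51% of all genes). The value for Eif2s2 was -1.27 (SE 0.28, adjusted p = 0.152), with -0.79 in liver and 0.51 in brain. Since each mouse gave both tissues, the comparison was also fitted with the mouse as a replicate block, where 68 genes passed and Eif2s2 was the 1 member among them (SE 0.22, edgeR adjusted p = 0.0549). With the GC offset added to the block, 0 genes passed. Next came Eif3j1 with -0.80 (SE 0.28, adjusted p = 0.355), Eif5b with -0.64 (SE 0.25, adjusted p = 0.392), Eif2b4 with 0.55 (SE 0.23, adjusted p = 0.413) and Eif3m with -0.56 (SE 0.24, adjusted p = 0.439). Further members with the smallest p were Eif3e with -0.52 (SE 0.25, adjusted p = 0.495) and Eif4e with -0.37 (SE 0.22, adjusted p = 0.577) on the lower side. On the higher side they were Eef1akmt4 with 1.56, which rests on its few counts in brain, Eif1 with 0.41 (SE 0.21, adjusted p = 0.53), Eif4ebp2 with 0.53 (SE 0.31, adjusted p = 0.574), Eif4e2 with 0.33 (SE 0.20, adjusted p = 0.576) and Eif3g with 0.37 (SE 0.22, adjusted p = 0.578). With the GC offset the values were -0.14 for Eif3m, -0.33 for Eif5b, 0.35 for Eif2b4, 0.01 for Eif3e, -0.16 for Eif4e and 0.16 for Eif3g. Leaving out 1 mouse moved Eif5b to -0.405 (without B), Eif3e to -0.326 and Eif4ebp2 to 0.285 (both without A), Eif4e to between -0.586 (without C) and -0.202 (without D), and Eef1akmt4 to 0.956 (without E). Between the tissues, 34 of 58 members tested in both had opposite signs of the genotype effect (58.6%), as did 58.5% of all genes.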

How the data were processed

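Per the labels and the study's methods, RNA of liver and brain was made into stranded total RNA-seq libraries, reads of 100 bases were trimmed with Trimmomatic and aligned with STAR 2.7.3a to mm10, and the authors counted exon reads per gene with featureCounts on the reverse strand. The deposited values are raw counts, not normalised. Symbols came from GENCODE M21, which matched 55227 of 55487 gene IDs. The members, the related genes and the marker lists were chosen with earlier results of these data known.

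Counts were tested with edgeR 4.0.16 (R 4.3.3): filterByExpr, TMM and quasi-likelihood F tests on the libraries of each comparison, with p-values adjusted by Benjamini-Hochberg across every gene in the fit and a threshold of 0.1. Named were, for each comparison, the 6 higher and 6 lower members with the smallest unadjusted p, passed or not, the members of 9 paralogue pairs, the subunits of eIF2, eIF2B, eIF3 and eEF1 as groups (each with its value in WT liver against brain), Eif2s3x, Eef2, Eef2k and Mettl5. Other genes and details named (Eef2kmt, Eif6, Eif2ak2, further values of members under single settings, the overlapping and shared transcripts) were chosen after their values were seen. Shares within pairs were compared by exact permutation tests. Alternatives were DESeq2 1.42.0, its size factors, no filter on low counts, no mitochondrial rRNA, all libraries in 1 fit, Y-linked transcripts as a covariate, the mouse as a replicate block in comparisons between tissues, leaving out each mouse, and, added after the data were seen, GC offsets (lowess, span 0.3). The GC offsets also take up the overall level of each library, beyond its relation to GC content. The block pairs liver and brain of the same animal. Over 9188 genes, the deviations of a mouse's 2 libraries from their group means correlated by 0.0047 to 0.296. The figure legends and the supplementary text of the study count pairs of heterozygous and KO mice among those sequenced, but no label ties a KO mouse to a control, and the genotype fits ignore any such pairing. The limit of 3 counts for a count of 0 covers counting error only.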

Additional observations from a re-analysis of the deposited data

Results flagged for a closer look

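Eif2s2, the beta subunit of eIF2, is listed because its change between KO and WT differed between the tissues in the fit with the mouse as a replicate block: -1.27 on the log2 scale for liver minus brain (SE 0.22, edgeR adjusted p = 0.0549). KO was lower than every WT library in 3 of 3 libraries in liver (-0.79), and the groups overlapped in brain (0.51). The adjusted p was 0.152 without the block and ranged from 0.00917 (DESeq2's Wald test) to 0.413 (without mouse F) over all settings fitted. With GC offsets added to the block the difference was -0.943 (adjusted p = 0.238), and with GC offsets alone the change in brain was 0.32 and that in liver -0.67.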

How the results depend on the processing

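For KO against WT liver, where 0 members and 0 genes passed in edgeR, 3 members (Eif2s2, Eif3j1, Eif5b; 183 genes) passed with DESeq2's Wald test, 4 (these and Eef2k; 443 genes) with no filter on low counts, 2 (Eif2s2, Eif3j1; 82 genes) with Y-linked transcripts as a covariate, and between 0 and 1 when each mouse was left out (Eif5b without mouse D, with 87 genes). For brain, 2 members (Eef1a2, Eif2s2; 1000 genes) passed with no filter and 0 in the other settings, with 282 genes in DESeq2, 17 with GC offsets and between 2 and 23 when each mouse was left out, against 11. For the difference between tissues, 1 member, Eif2s2, passed with DESeq2 (357 genes), with no filter (183 genes) and with the replicate block (68 genes), and 0 in the other settings, with 86 genes without mouse D. In KO liver against KO brain the block ended the calls of Eif3h (adjusted p = 0.114) and Eif3e (0.148) and added Eif2a (0.0999), and it changed no other call of a member. Leaving out a mouse gave between 0 and 2 paralogue pairs without overlap between the genotypes in liver and between 0 and 3 in brain, against 0, and 8 in each case between the WT tissues. In WT liver against brain, 33 members passed at an absolute log2 fold change of at least 1 with GC offsets, against 21, and the share of all genes past this limit with offsets was not counted. GC offsets move the median of all genes by 0.37 (KO 0.40) and the lack of a filter by -0.27 (KO -0.38). Without mouse B, 39 members passed in WT liver against brain in place of 49, and 12830 of 17987 genes in place of 13861 of 17694.

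Directions turned for Eif3e in KO against WT brain (-0.0194 with GC offsets) and in the difference between tissues (0.01 with GC offsets, 0.0147 with offsets and block), and, in KO liver against KO brain, for Eif4a2 (0.284 with GC offsets, adjusted p = 0.0974), Eif3e (1.34 with GC offsets), Eif4g3 (between -0.395 and 0.0886 when each mouse was left out, the latter without mouse F) and Eif3j2 (-0.00238 with DESeq2's size factors, between -0.216 and 0.388 when each mouse was left out). The cause was not tested. Eif3j2, Eef1akmt4, and Eef1a2 and Eif5a2 in liver, had few counts.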
